A study of Mus musculus with 29 samples.

Results

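The chemokine receptor genes Ccr1, Ccr2, Cx3cr1, Cxcr4 and Ackr3 were examined by RNA sequencing in aortic arch tissue of C57BL/6 males from a safety study of Scl-Ab, an antibody against sclerostin. The 5 genes were taken by symbol from the 51456 gene symbols listed for each of 29 libraries. The Scl-Ab group (10 libraries) came from mice lacking apolipoprotein E (ApoE KO) that carried a pump releasing angiotensin II (AngII; a solution of 15.27 mg/mL, 0.11 µL/hr) and were injected weekly with Scl-Ab at 10 mg/kg for 4 weeks. The vehicle group (9 libraries) came from ApoE KO mice with the same AngII pump and vehicle injections, and the WT group (10 libraries) from mice given vehicle by both routes. All mice were on a chow diet and labelled 14 weeks old, and the fat around the vessel had been scraped off before RNA was taken. In the protocol, 5 mice of the Scl-Ab group and 6 of the vehicle group died early, mainly of aortic rupture, so the libraries describe survivors. The protocol counts 9 WT mice against 10 WT libraries, so n counts libraries. Genotype and AngII differ together between both ApoE KO groups and WT and cannot be told apart.

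Chemokines are small secreted proteins that guide cells along a gradient, and most of their receptors signal through inhibitory G proteins. Ccr1, Ccr2 and Cx3cr1 are best known on monocytes and macrophages. Ccr2 takes classical monocytes out of the bone marrow and into inflamed vessel walls, and Cx3cr1 binds fractalkine and is typical of patrolling monocytes and many tissue macrophages. Cxcr4 binds Cxcl12 and is carried by most leukocytes and by some vessel wall cells. Ackr3 binds the same ligand but acts as an atypical receptor that takes it up and works through arrestins, and it is also expressed by cells that are not leukocytes.

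The genes lie on 2 chromosomes (GRCm38, GENCODE M21). Ccr1 (ENSMUSG00000025804.5, chr9:123962124-123968692, minus strand), Ccr2 (ENSMUSG00000049103.14, chr9:124101950-124113557, plus strand) and Cx3cr1 (ENSMUSG00000052336.7, chr9:119901616-120069879, minus strand) are on chromosome 9. Cxcr4 (ENSMUSG00000045382.6, chr1:128588199-128592293, minus strand) and Ackr3 (ENSMUSG00000044337.5, chr1:90203980-90216751, plus strand) are on chromosome 1. Of all 50-base stretches in its transcripts, Ccr2 shares 1.91% with other genes and Cx3cr1 shares 0.269%, while Ccr1, Cxcr4 and Ackr3 share 0. The annotated span of Cx3cr1 overlaps 9 other genes in whole or in part, 6 of them on the opposite strand. How reads in such overlaps were counted is not given in the sources used here.

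The 250 bases before the RefSeq start (GRCm38.p6) are shown, read along the gene, for Ccr2 and Cxcr4, the receptors with the largest rises in the ApoE KO groups, and for Ackr3, which did not pass the test. Capitals mark exact matches, on either strand, to TATAAA (the TATA box) and GGGCGG (the GC box). The windows are chr9:124101933-124102182 (plus strand) for Ccr2, chr1:128592300-128592549 (minus strand) for Cxcr4 and chr1:90203730-90203979 (plus strand) for Ackr3.
Ccr2: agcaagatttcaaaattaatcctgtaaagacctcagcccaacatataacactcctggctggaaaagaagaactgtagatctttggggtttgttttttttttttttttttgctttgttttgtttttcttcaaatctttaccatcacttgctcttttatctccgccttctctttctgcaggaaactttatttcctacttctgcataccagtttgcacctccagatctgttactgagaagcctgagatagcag
Cxcr4: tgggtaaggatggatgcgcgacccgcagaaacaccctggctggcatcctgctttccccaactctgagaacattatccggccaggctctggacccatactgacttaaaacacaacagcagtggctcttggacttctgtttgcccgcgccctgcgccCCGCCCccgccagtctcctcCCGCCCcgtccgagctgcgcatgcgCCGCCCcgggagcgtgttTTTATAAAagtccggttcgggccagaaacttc
Ackr3: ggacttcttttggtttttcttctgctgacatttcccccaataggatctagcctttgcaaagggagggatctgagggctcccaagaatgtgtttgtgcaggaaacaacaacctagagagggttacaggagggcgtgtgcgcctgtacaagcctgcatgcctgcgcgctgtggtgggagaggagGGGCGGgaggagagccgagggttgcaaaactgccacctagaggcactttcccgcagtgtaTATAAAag
The Cxcr4 window held 3 matches to the GC box and 2 overlapping matches, 1 on each strand, to the TATA box. Ackr3 held 1 match to each, and Ccr2 held none. Of all 32851 RefSeq windows of this length, 32.7% held the GC box and 12.4% the TATA box. Searched likewise, GAGGAA (the core bound by the myeloid factor PU.1) occurred in 23.3% of all windows and, of the 5 genes, in Ccr1 only, and CACGTG (the E-box read by clock factors) occurred in 6.02% of all windows and in none of the 5. The G and C content was 61.2% for Cxcr4, 54% for Ackr3, 53.6% for Cx3cr1, 43.6% for Ccr1 and 37.2% for Ccr2, and the Cxcr4 window held 19 CpG dinucleotides against 7 for Ackr3 and 1 for Ccr2. The Cx3cr1 window lies inside the wider GENCODE span of the gene, and most of the Ccr2 window does.

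The deposited values are FPKM-like and were taken to be scaled by gene length and, per library, to one upper quantile. Levels of different genes are set side by side on that basis. For a gene of 1 kb, about 15.9 to 21.8 fragments lay behind each unit of value, and 12558 to 13397 genes per library reached 1. Fold changes, with their standard errors (SE), were estimated with limma on log2(value + 1) over the 13510 genes that reached 1 in 9 libraries or more. Adjusted p-values are Benjamini-Hochberg values over all 13510 genes and were called under 0.05. On this scale the fold change of a gene with low values is understated, so the ratio of the group means, or the means themselves, stand beside it. As a check of the tissue, smooth muscle markers (7 genes) summed to a median of 9595 in Scl-Ab, 10932 in vehicle and 18136 in WT. In bulk tissue, fewer cells of a type and less RNA per cell cannot be told apart.

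Against WT, Ccr1, Ccr2, Cx3cr1 and Cxcr4 rose in both ApoE KO groups and Ackr3 did not pass the test. In the Scl-Ab group 4 of the 5 genes were higher than in WT (19.8% of all genes tested were), and in the vehicle group 4 of the 5 were (22.7% of all genes tested). The libraries lay wholly above WT for 4 of the 5 genes in Scl-Ab (5.74% of all genes tested) and for 3 of the 5 in vehicle (7.81% of all genes tested). These 4 genes had values of at least 1 in at most 2 of the 10 WT libraries, so they entered the test through the ApoE KO groups alone and had to differ. The count over the genes is therefore a description. The vehicle and the Scl-Ab comparison with WT share the WT libraries.

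**Figure D1:**
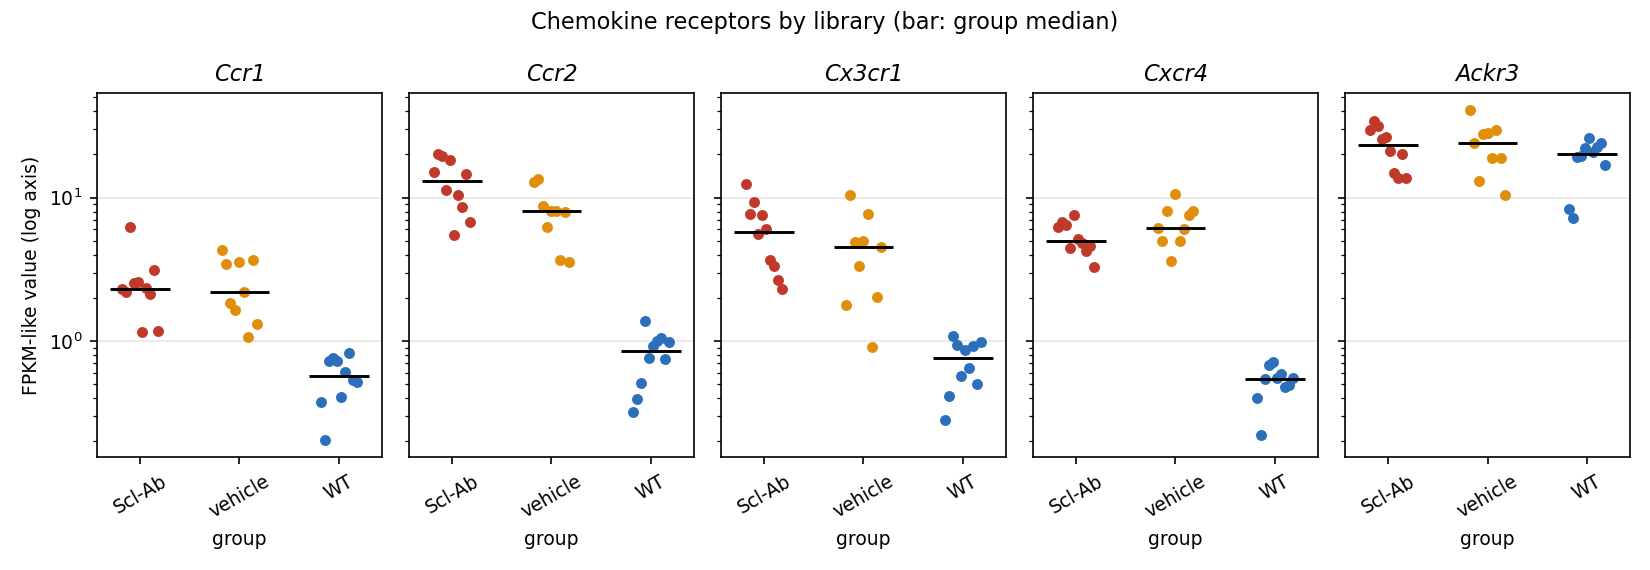
FPKM-like value (log axis) of each receptor in every library of the Scl-Ab, vehicle and WT groups, with a bar at the group median. Ccr1, Ccr2 and Cxcr4 are higher in every Scl-Ab and vehicle library than in any WT library, Cx3cr1 meets the WT range in 1 vehicle library, and Ackr3 overlaps in all 3 groups, with 2 WT libraries apart at 8.33 and 7.23.

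Ccr2, the receptor for Ccl2, Ccl7 and Ccl12, showed the largest rise in the Scl-Ab group. In the 10 Scl-Ab libraries its value was 5.49 at the lowest, 12.99 at the median and 20.3 at the highest, in the 9 vehicle libraries 3.54, 8.02 and 13.5, and in the 10 WT libraries 0.318, 0.845 and 1.37. Every library of both ApoE KO groups lay above every WT library. The means were 13.1 ± 5.35 in Scl-Ab (SD, n = 10), 8.06 ± 3.45 in vehicle (SD, n = 9) and 0.806 ± 0.328 in WT (SD, n = 10). Ccr2 was 7.35-fold higher in Scl-Ab than in WT (log2 2.88, SE 0.22, limma adjusted p = 1.24e-11, ratio of means 16.2). It was 4.75-fold higher in vehicle than in WT (log2 2.25, SE 0.22, limma adjusted p = 2.27e-09, ratio of means 10.0).

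Cxcr4, the signalling receptor for Cxcl12, rose most in the vehicle group. Its value was 3.27, 4.97 and 7.53 (lowest, median and highest) in the Scl-Ab libraries, 3.59, 6.09 and 10.7 in the vehicle libraries, and 0.223, 0.544 and 0.719 in the WT libraries. No WT library reached 1, and no ApoE KO library of either group fell below 3. Cxcr4 was 4.10-fold higher in Scl-Ab than in WT (log2 2.04, SE 0.13, limma adjusted p = 6.81e-13, ratio of means 10.2). In vehicle it was 4.89-fold higher than in WT (log2 2.29, SE 0.13, limma adjusted p = 1.11e-13, ratio of means 12.8). The highest vehicle library, replicate 6, stood at 10.7. The WT values rest on few reads, about 7.00 to 26.98 fragments per library.

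Cx3cr1, the receptor for the membrane-bound chemokine fractalkine, had the widest spread among vehicle libraries relative to its level. Its value was 2.31, 5.79 and 12.4 (lowest, median and highest) in the Scl-Ab libraries, 0.906, 4.54 and 10.4 in the vehicle libraries, and 0.283, 0.758 and 1.08 in the WT libraries. Every Scl-Ab library lay above WT, while vehicle replicate 9 at 0.906 lay within the WT range. Cx3cr1 was 3.77-fold higher in Scl-Ab than in WT (log2 1.92, SE 0.26, limma adjusted p = 7.96e-07, ratio of means 8.42). The rise in vehicle over WT was 2.82-fold (log2 1.50, SE 0.27, limma adjusted p = 4.11e-05, ratio of means 6.25).

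Ccr1, a receptor for Ccl3, Ccl5 and, in mice, Ccl6 and Ccl9, was the lowest of the 5 genes in both ApoE KO groups. Its value was 1.16, 2.32 and 6.28 (lowest, median and highest) in the Scl-Ab libraries, 1.06, 2.19 and 4.34 in the vehicle libraries, and 0.203, 0.574 and 0.826 in the WT libraries. The 6.28 of Scl-Ab replicate 13 stood apart from the other 9 Scl-Ab libraries, of which the highest was 3.15. No ApoE KO library of either group fell into the WT range. Ccr1 was 2.18-fold higher in Scl-Ab than in WT (95% interval 1.69 to 2.81, limma adjusted p = 7.20e-06, ratio of means 4.55). It was also 2.18-fold higher in vehicle than in WT (95% interval 1.68 to 2.83, limma adjusted p = 1.03e-05, ratio of means 4.53).

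Ackr3, the atypical receptor for Cxcl12 and Cxcl11, had the highest level of the 5 genes in each group. Its value was 13.7, 23.5 and 34.4 (lowest, median and highest) in the Scl-Ab libraries, 10.5, 24.03 and 40.8 in the vehicle libraries, and 7.23, 20.3 and 26.1 in the WT libraries. The 3 groups overlapped over most of their range. Ackr3 was 1.24-fold of WT in Scl-Ab (95% interval 0.889 to 1.74, limma adjusted p = 0.273) and 1.23-fold of WT in vehicle (95% interval 0.875 to 1.74, limma adjusted p = 0.299). Both intervals allow a rise of up to 1.74-fold. About 421 to 1743 fragments per WT library lie behind these values, so counting error is small beside the spread between libraries.

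WT replicates 20 and 21 stood apart for Ackr3, at 8.33 and 7.23, with the other 8 WT libraries at 16.8 to 26.1. The same 2 libraries were the lowest of WT for Ccr1, Ccr2, Cx3cr1 and Cxcr4. Their summed adipocyte markers (7 genes) were 182 and 427, against a WT median of 1159, and their summed macrophage markers (15 genes) were 239 and 135, against a WT median of 304. Without both, WT Ackr3 averaged 21.5 ± 2.96 (SD, n = 8), and its log2 fold change was 0.045 for Scl-Ab against WT and 0.035 for vehicle against WT, while the other 4 genes kept their calls. The part of adipocytes and macrophages in these 2 libraries was not tested.

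In the order of levels, Ackr3 came first and Ccr2 second in each of the 3 groups by their means. The ranges of Ackr3 and Ccr2 did not meet in WT, while those of every pair of neighbours in the order overlapped in Scl-Ab and in vehicle. Within every single library of the 3 groups, however, Ackr3 was above Ccr2. Below them stood Cx3cr1, Cxcr4 and Ccr1 in Scl-Ab, Cxcr4, Cx3cr1 and Ccr1 in vehicle, and Cx3cr1, Ccr1 and Cxcr4 in WT, all within each other's spread in WT. Of the summed value of the 5 receptors, Ackr3 made up 46.3 ± 4.59% in Scl-Ab (SD, n = 10), 50.8 ± 12.7% in vehicle (SD, n = 9) and 87.3 ± 2.44% in WT (SD, n = 10). No WT library had an Ackr3 share under 83.9%, and no vehicle library had one above 71.6%. Ccr2 made up 25.8 ± 5.10% in Scl-Ab, 17.5 ± 5.12% in vehicle and 3.84 ± 1.101% in WT (SD, n = 10, 9 and 10). The share of Cxcr4 was 11.1 ± 1.84% in Scl-Ab, 15.8 ± 7.04% in vehicle and 2.59 ± 0.684% in WT.

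Macrophage markers, like Ccr1, Ccr2, Cx3cr1 and Cxcr4, were higher in both ApoE KO groups than in WT. The sum of 15 macrophage genes ranged from 1011 to 2425 in Scl-Ab (median 1520), from 1294 to 3891 in vehicle (median 2171) and from 135 to 444 in WT (median 304), and all 15 genes were higher than in WT in each ApoE KO group (limma). Classical monocyte markers (5 genes, Ccr2 among them) summed to a median of 30.4 in Scl-Ab, 19.9 in vehicle and 4.52 in WT. Per 1000 units of the macrophage sum, Ccr2 stood at 7.94 ± 2.50 in Scl-Ab (SD, n = 10), 4.08 ± 2.18 in vehicle (SD, n = 9) and 2.68 ± 0.787 in WT (SD, n = 10). Cxcr4 stood at 3.25 ± 0.429 in Scl-Ab, 3.13 ± 0.808 in vehicle and 1.77 ± 0.331 in WT on that scale, and Ccr1 stood at 1.59 ± 0.738 in Scl-Ab, 1.29 ± 0.740 in vehicle and 1.86 ± 0.328 in WT. Cx3cr1 stood at 3.57 ± 1.74 in Scl-Ab, 2.08 ± 1.37 in vehicle and 2.45 ± 0.874 in WT, and Ackr3 at 14.0 ± 3.47 in Scl-Ab, 12.6 ± 7.69 in vehicle and 62.4 ± 16.4 in WT. The scale has no fixed meaning per cell, since the sum is led by the most abundant markers. With the mean log2 macrophage level as a covariate none of the 5 genes passed against WT, where only 2.39% of all genes passed for Scl-Ab and 2.32% for vehicle. At an unadjusted p under 0.05 (limma), 2 of the 5 genes passed for Scl-Ab, where 2437 of all 13510 genes did. For vehicle 1 of the 5 passed, where 2400 of all 13510 did. Under this covariate the log2 fold changes of Cx3cr1 and Ackr3 were negative in both comparisons, and that of Ccr1 was negative for vehicle. No ApoE KO library shared the macrophage range of WT, so the covariate and the group can hardly be told apart.

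Markers of other leukocytes were lower in level than those of macrophages. T and NK cell markers (9 genes) summed to 1.71 to 6.83 in Scl-Ab, 1.38 to 4.67 in vehicle and 0.623 to 1.17 in WT, and B cell markers (4 genes) to at most 3.58 in Scl-Ab, 4.75 in vehicle and 1.48 in WT. None of these 13 genes reached the filter. Neutrophil markers (6 genes) had medians of 6.91 in Scl-Ab, 16.6 in vehicle and 2.17 in WT, and Ly6g, the defining one, was at 0 in 10 of 10 Scl-Ab, 8 of 9 vehicle and 9 of 10 WT libraries. Dendritic cell markers (5 genes) had medians of 10.2 in Scl-Ab, 8.73 in vehicle and 6.30 in WT. Fibroblast markers (5 genes) had medians of 2641 in Scl-Ab, 2154 in vehicle and 1291 in WT, adipocyte markers (7 genes) of 2293 in Scl-Ab, 1146 in vehicle and 1159 in WT, and heart muscle markers (5 genes) of 264 in Scl-Ab, 85.8 in vehicle and 50.7 in WT. Their part in the receptor values was not tested.

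Scl-Ab was then set against vehicle, to ask what the antibody changed within the ApoE KO and AngII background. None of the 5 receptors passed (limma), where 7.44% of all genes tested did, and no receptor passed with the Wilcoxon test. At an unadjusted p under 0.05, 1 of the 5 receptors passed, Ccr2, and 25% of all genes tested did. Ccr2 averaged 13.1 in Scl-Ab and 8.06 in vehicle, 1.55-fold (95% interval 1.13 to 2.12, log2 0.63, SE 0.22, limma adjusted p = 0.0745), with the groups overlapping between 5.49 and 13.5. The exact permutation test of Ccr2 alone gave p = 0.0351 (2-sided, unadjusted). Cxcr4 stood at 0.838-fold of vehicle in Scl-Ab (95% interval 0.693 to 1.01, limma adjusted p = 0.241) and Cx3cr1 at 1.34-fold (95% interval 0.909 to 1.97, limma adjusted p = 0.355). Ccr1 was at 0.9998-fold (95% interval 0.770 to 1.30, limma adjusted p = 0.9997) and Ackr3 at 1.01-fold (95% interval 0.714 to 1.42, limma adjusted p = 0.986), so these data allow a difference of Ackr3 of up to 1.42-fold.

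**Figure D2:**
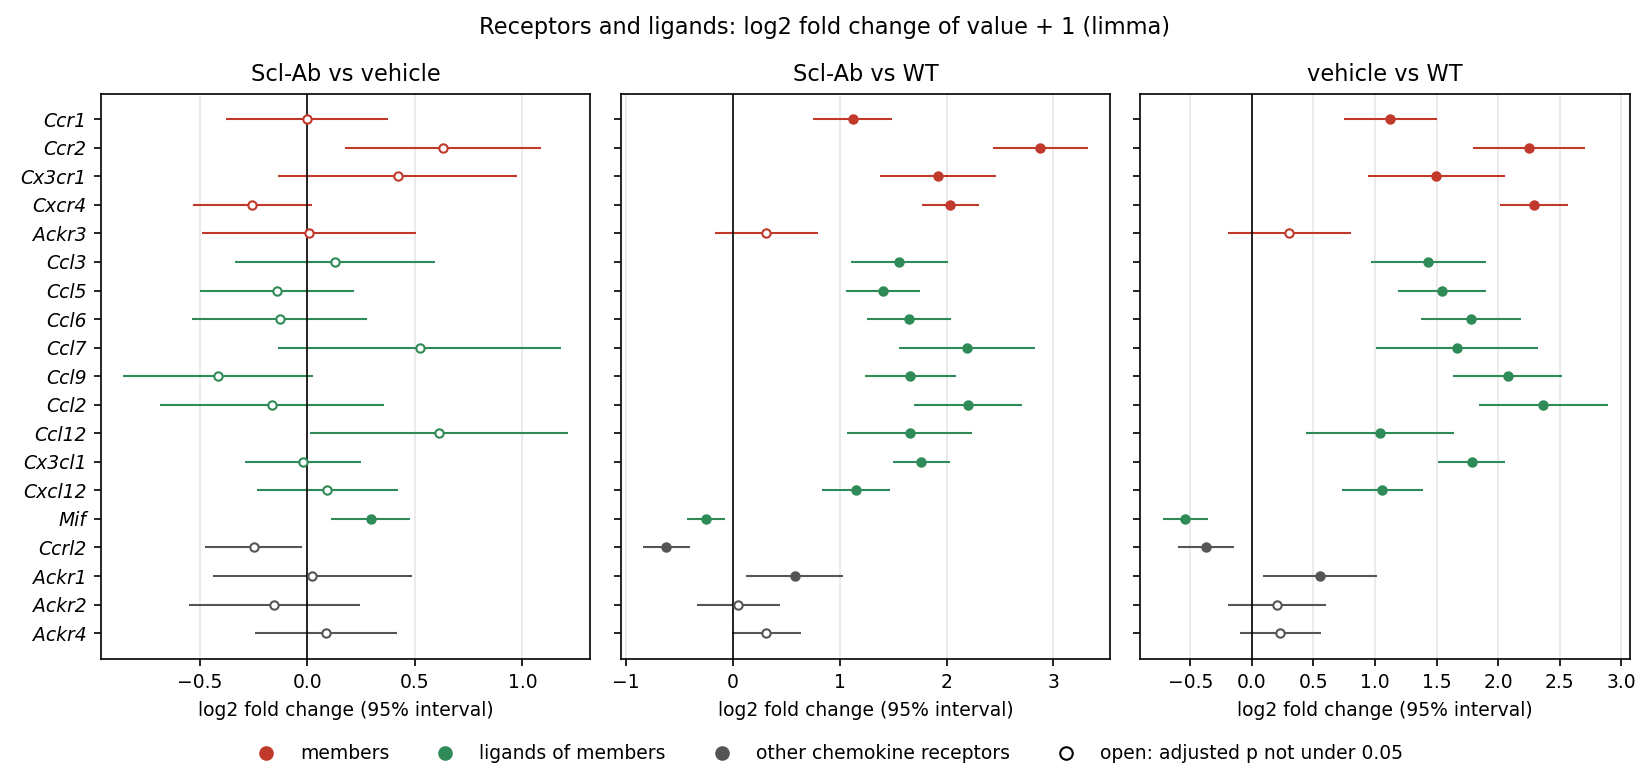
Log2 fold change on the value + 1 scale (x axis, with its 95% interval from limma) of the 5 receptors, their ligands and other chemokine receptors (rows), for Scl-Ab against vehicle, Scl-Ab against WT and vehicle against WT; filled points passed an adjusted p under 0.05. Against WT the Ccr1, Ccr2, Cx3cr1 and Cxcr4 points are filled and right of 0 while Ackr3 is open at 0.31 and 0.30, and against vehicle Mif is the filled point.

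Within the ranges of the title code the Ccr2 difference kept its size. The titles carry a 4-digit code of unstated meaning whose last 2 digits run from 12 to 15 in 4 Scl-Ab and 4 vehicle libraries and from 27 to 33 in 6 Scl-Ab and 5 vehicle libraries. In the range 12 to 15, Ccr2 averaged 17.5 ± 2.93 in Scl-Ab (SD, n = 4) and 10.7 ± 2.79 in vehicle (SD, n = 4), with the lowest Scl-Ab library at 14.7 and the highest vehicle library at 13.5. In the range 27 to 33 it averaged 10.1 ± 4.53 in Scl-Ab (SD, n = 6) and 5.91 ± 2.22 in vehicle (SD, n = 5). The 2 ranges thus differed in level in both groups, and the log2 fold change was 0.67 in the range 12 to 15 (limma adjusted p = 0.199) and 0.66 in the range 27 to 33 (limma adjusted p = 0.113). With the range entered in the fit, an alternative added once the data had been seen, Ccr2 was at log2 0.67 (SE 0.17, limma adjusted p = 0.0171), where 8.28% of all genes passed. For Ackr3 the log2 fold change was 0.34 in the range 12 to 15 and -0.20 in the range 27 to 33. For Cxcr4 it was -0.12 in the range 12 to 15 and -0.34 in the range 27 to 33.

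**Figure D3:**
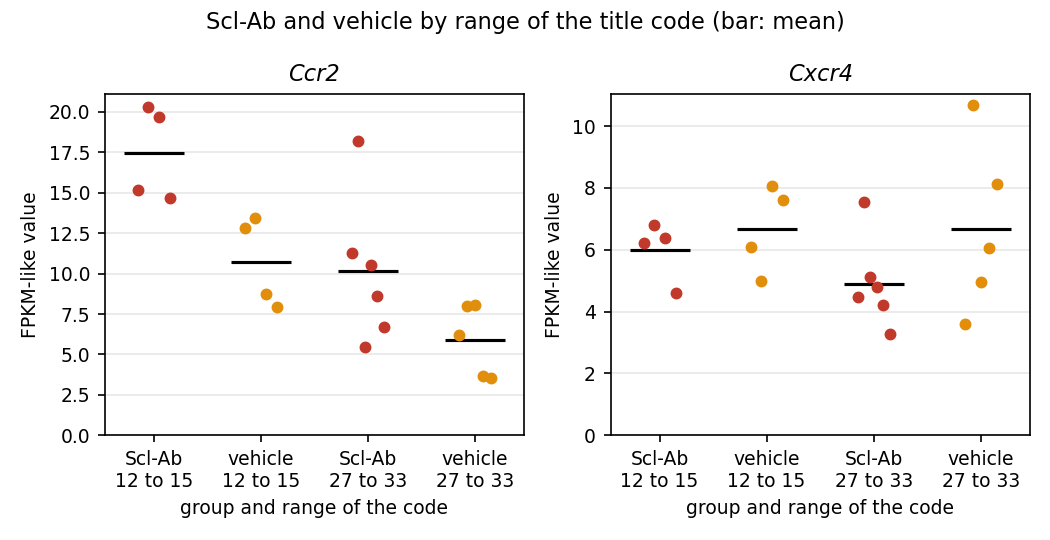
FPKM-like value (y axis) of Ccr2 and Cxcr4 in each Scl-Ab and vehicle library, split by the range of the title code, with a bar at the mean. In Ccr2 the Scl-Ab mean is above the vehicle mean in both ranges (17.5 in Scl-Ab and 10.7 in vehicle for 12 to 15, 10.1 in Scl-Ab and 5.91 in vehicle for 27 to 33), and in Cxcr4 it is below in both.

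Single libraries decided the side of the threshold for Ccr2. Leaving out Scl-Ab replicate 16 gave an adjusted p of 0.0363, vehicle replicate 1 gave 0.0419 and vehicle replicate 3 gave 0.0459, and the highest value over the 19 libraries left out in turn was 0.131 (limma). With the mean log2 macrophage level as a covariate Ccr2 was at log2 0.76 (limma adjusted p = 0.0205, where 8.96% of all genes passed), and with an index of 12 circadian clock genes as a covariate it was at log2 0.54 (limma adjusted p = 0.845, where 0.0222% of all genes passed). The clock index, the mean log2 level of Dbp and 7 genes of like phase minus that of 4 genes of opposite phase, ran from 1.63 to 3.78 in Scl-Ab, from -1.61 to 2.06 in vehicle and from -0.184 to 4.26 in WT. It therefore differed between Scl-Ab and vehicle, and its part in the Ccr2 difference was not tested. Endothelial markers (9 genes) had medians of 161 in Scl-Ab, 231 in vehicle and 154 in WT. Against vehicle, 3 of the 9 were lower in Scl-Ab by limma (4.8% of all genes tested were). With the Wilcoxon test 1 of the 9 was called.

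Most of the tested ligands were higher in the ApoE KO groups than in WT, though not every ligand moved with its receptor. Of 11 listed ligands 10 could be tested, and in each ApoE KO group 9 were higher than in WT (19.8% of all genes tested were for Scl-Ab and 22.7% for vehicle) and 1, Mif, was lower (30.5% of all genes for Scl-Ab and 31% for vehicle). Of these 10, Ccl3 and Ccl5 reached 1 in at most 2 of the 10 WT libraries and so entered the test through the ApoE KO groups. The ligands had a median log2 fold change of 1.65 for Scl-Ab against WT (-0.057 over all genes) and 1.61 for vehicle against WT (-0.039 over all genes). Of the ligands of Ccr2, Ccl2, which draws monocytes, averaged 10.1 in Scl-Ab, 11.6 in vehicle and 1.29 in WT, Ccl7 averaged 10.9 in Scl-Ab, 7.36 in vehicle and 1.36 in WT, and Ccl12 averaged 10.3 in Scl-Ab, 6.48 in vehicle and 2.24 in WT. In Scl-Ab the rise over WT was 4.60-fold for Ccl2, 4.57-fold for Ccl7 and 3.15-fold for Ccl12. In vehicle it was 5.15-fold for Ccl2, 3.18-fold for Ccl7 and 2.06-fold for Ccl12. Against vehicle, Scl-Ab stood at 0.892-fold for Ccl2 (95% interval 0.622 to 1.28), 1.44-fold for Ccl7 (95% interval 0.911 to 2.27) and 1.53-fold for Ccl12 (95% interval 1.01 to 2.32, limma adjusted p = 0.188). None of these 3 passed, and of the 10 tested ligands 1 did, Mif (7.44% of all genes tested did).

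Among the ligands of Ccr1, Ccl6 was the most abundant, at 74.7 ± 25.6 in Scl-Ab (SD, n = 10), 81.9 ± 28.7 in vehicle (SD, n = 9) and 23.2 ± 7.60 in WT (SD, n = 10), followed by Ccl9 at 24.5 ± 9.93 in Scl-Ab, 33.3 ± 13.9 in vehicle and 7.04 ± 2.57 in WT. Ccl6 was 3.14-fold higher in Scl-Ab and 3.43-fold higher in vehicle than in WT, and Ccl9 was 3.16-fold higher in Scl-Ab and 4.22-fold higher in vehicle. Ccl3 averaged 2.71 in Scl-Ab, 2.78 in vehicle and 0.242 in WT, and Ccl5 averaged 3.41 in Scl-Ab, 3.89 in vehicle and 0.640 in WT. Both rose against WT, Ccl3 2.95-fold (ratio of means 11.2) and Ccl5 2.65-fold (ratio of means 5.33) in Scl-Ab, and Ccl3 2.70-fold (ratio of means 11.5) and Ccl5 2.91-fold (ratio of means 6.08) in vehicle. None of the 4 passed between Scl-Ab and vehicle, with adjusted p-values of 0.230 to 0.784 (limma).

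Cx3cl1, the fractalkine gene, averaged 22.2 ± 4.52 in Scl-Ab (SD, n = 10), 22.6 ± 4.79 in vehicle (SD, n = 9) and 5.81 ± 1.24 in WT (SD, n = 10), and the lowest Scl-Ab and vehicle libraries, at 13.7 and 15.4, lay above the highest WT library at 7.30. Cxcl12, the shared ligand of Cxcr4 and Ackr3, was the most abundant ligand, at 177 ± 52.2 in Scl-Ab, 163 ± 32.8 in vehicle and 78.0 ± 16.8 in WT (SD, n = 10, 9 and 10). It was 2.22-fold higher in Scl-Ab and 2.08-fold higher in vehicle than in WT. The Scl-Ab libraries, from 112 upward, and the vehicle libraries, from 110 upward, lay above the highest WT library at 99.9. Cxcl11, the other ligand of Ackr3, was at 0 in 3 Scl-Ab, 4 vehicle and 5 WT libraries and was not tested. Mif, a cytokine that also binds Cxcr4, averaged 58.4 ± 11.1 in Scl-Ab, 47.1 ± 7.06 in vehicle and 68.6 ± 4.68 in WT. It was 0.843-fold of WT in Scl-Ab (limma adjusted p = 0.0203), 0.687-fold of WT in vehicle (limma adjusted p = 1.21e-05) and 1.23-fold of vehicle in Scl-Ab (limma adjusted p = 0.0425). With the Wilcoxon test neither Scl-Ab difference was called (adjusted p = 0.0540 against WT and 0.0829 against vehicle). Mif shares 34.1% of its 50-base stretches with other genes, so its value is uncertain.

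Of 18 other chemokine receptor genes, 4 were measured well enough to be tested. In each ApoE KO group 1 was higher and 1 lower than in WT by limma. Of all genes tested, 19.8% were higher and 30.5% lower for Scl-Ab, and 22.7% higher and 31% lower for vehicle. Ackr1, an atypical receptor of venular endothelium and red cells, rose 1.49-fold in Scl-Ab (ratio of means 2.02) and 1.47-fold in vehicle (ratio of means 2.24) over WT by limma, and with the Wilcoxon test the rise in vehicle was not called (adjusted p = 0.0501). Ccrl2, which binds chemerin without signalling, was lower, at 0.651-fold of WT in Scl-Ab and 0.773-fold of WT in vehicle. The scavenger receptors Ackr2 and Ackr4 did not pass against WT. In Scl-Ab against vehicle none of the 4 passed (limma, and also Wilcoxon), and 1, Ccrl2, had an unadjusted p under 0.05. The other 14, among them the lymphocyte receptors Ccr7, Cxcr3, Cxcr5 and Cxcr6, averaged under 1 in each group, the highest being Ccr10 at 0.933 in Scl-Ab, 0.585 in vehicle and 0.767 in WT. Low levels did not mean equal levels. The ratio of means over WT, in Scl-Ab and in vehicle, was 11.3 and 14.3 for Ccr7 and 4.58 and 3.81 for Cxcr3. It was 3.50 and 3.56 for Cxcr6, and 1.01 and 0.830 for Cxcr5. These differences were not tested.

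The machinery through which these receptors signal was measured by 20 genes, of which 13 were higher and 3 lower than in WT in the Scl-Ab group, and likewise 13 higher and 3 lower in the vehicle group (19.8% of all genes tested were higher and 30.5% lower in Scl-Ab, and 22.7% higher and 31% lower in vehicle). Of the 20, 6 (Pik3cg, Pik3r5, Dock2, Was, Rgs1 and Rgs18) reached 1 in at most 2 WT libraries, so they entered the test through the ApoE KO groups and the counts are a description. The median log2 fold change was 0.43 for Scl-Ab against WT (-0.057 over all genes) and 0.60 for vehicle against WT (-0.039 over all genes). Pik3r5, a regulatory subunit of the phosphoinositide 3-kinase that G proteins switch on, averaged 2.79 ± 0.665 in Scl-Ab, 3.83 ± 0.760 in vehicle and 0.402 ± 0.118 in WT. It was 2.67-fold higher in Scl-Ab (ratio of means 6.94) and 3.41-fold higher in vehicle (ratio of means 9.52) than in WT. Rac2, a leukocyte GTPase that drives actin assembly, was 3.19-fold higher in Scl-Ab (ratio of means 5.59) and 3.29-fold higher in vehicle (ratio of means 5.78) than in WT. Dock2, the exchange factor that activates it, was 2.28-fold higher in Scl-Ab (ratio of means 6.54) and 2.51-fold higher in vehicle (ratio of means 7.49) than in WT. These genes are expressed mainly in blood-derived cells and, like the macrophage markers, were higher in both ApoE KO groups than in WT.

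Between Scl-Ab and vehicle, 3 of the 20 signalling genes were higher and 4 lower in Scl-Ab (limma; 2.64% of all genes tested were higher and 4.8% lower). With the Wilcoxon test 3 of the 20 passed, Rgs1 and Elmo1 among them, and Grk2 did not (adjusted p = 0.0829). Rgs1, which shuts off inhibitory G proteins and so dampens the response to chemokines, averaged 1.023 ± 0.395 in Scl-Ab (SD, n = 10) and 2.13 ± 0.993 in vehicle (SD, n = 9), 0.663-fold (log2 -0.59, SE 0.13, limma adjusted p = 0.00783, ratio of means 0.481). Elmo1, the partner of Dock2, averaged 6.19 ± 0.912 in Scl-Ab and 4.80 ± 0.534 in vehicle, 1.24-fold (log2 0.31, SE 0.071, limma adjusted p = 0.0119). Grk2, the kinase that marks active receptors for arrestin, averaged 29.6 ± 2.42 in Scl-Ab and 25.4 ± 2.95 in vehicle, 1.16-fold (log2 0.22, SE 0.056, limma adjusted p = 0.0203). The median over the 20 genes was log2 -0.077, against -0.0085 over all genes. The clock index and, by limma, 3 of the 9 endothelial markers also differed between these groups, and their part was not tested.

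The receptors were also related to each other across the libraries of each group, over 30 relations (10 pairs in 3 groups) on the log2(value + 1) scale with permutation p-values adjusted over all 30. By Pearson's r, 5 of the 10 pairs passed in Scl-Ab, 1 in vehicle and 2 in WT. By Spearman's rho, 4 passed in Scl-Ab, 0 in vehicle and 0 in WT. How many pairs of other genes would pass in the same libraries was not counted, so these counts are a description. Cx3cr1 and Ackr3 followed each other in the 10 Scl-Ab libraries (Pearson r = 0.861, permutation p = 0.00218, adjusted 0.0364; Spearman rho = 0.903, permutation p = 0.00073, adjusted 0.0219), and r was 0.834 without the 2 libraries farthest from the median of Cx3cr1. In the 9 vehicle libraries the same pair had r = -0.381 (exact permutation p = 0.312) and rho = -0.467 (exact permutation p = 0.213). Whether the Scl-Ab and vehicle values differ was not tested. Cxcr4 and Ackr3 had r = 0.819 (permutation p = 0.00499, adjusted 0.0374) and rho = 0.842 (permutation p = 0.00386, adjusted 0.0386) in Scl-Ab, and r = -0.312 (exact permutation p = 0.417) and rho = -0.200 (exact permutation p = 0.613) in vehicle. Cx3cr1 and Cxcr4 had r = 0.837 (permutation p = 0.00315, adjusted 0.0364) and rho = 0.818 (permutation p = 0.00584, adjusted 0.0438) in Scl-Ab, and r = -0.0729 (exact permutation p = 0.855) and rho = -0.0167 (exact permutation p = 0.982) in vehicle. Ccr2 and Ackr3 had r = 0.736 (permutation p = 0.0184, adjusted 0.0587) and rho = 0.842 (permutation p = 0.00356, adjusted 0.0386) in Scl-Ab, and r = 0.373 (exact permutation p = 0.322) and rho = 0.167 (exact permutation p = 0.678) in vehicle. Without the 2 libraries farthest on the first gene, r in Scl-Ab was 0.837 for Cxcr4 with Ackr3, 0.812 for Cx3cr1 with Cxcr4 and 0.863 for Ccr2 with Ackr3.

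**Figure D4:**
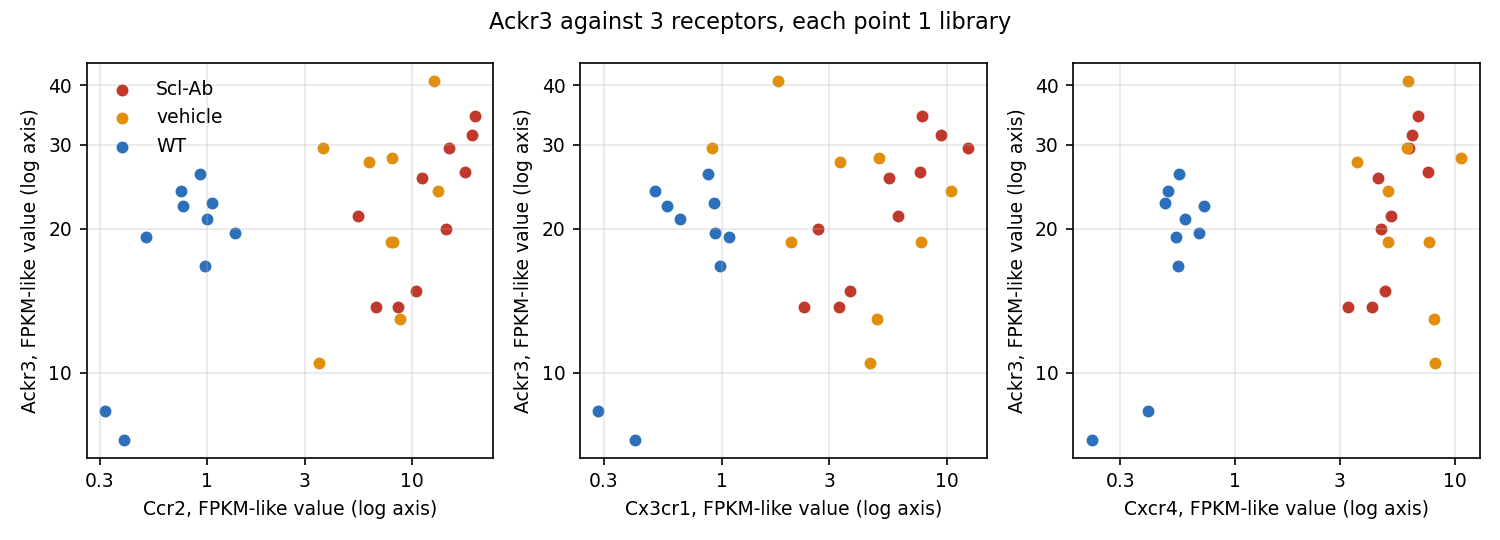
Ackr3 (y axis, FPKM-like value, log axis) against Ccr2, Cx3cr1 and Cxcr4 (x axes, FPKM-like value, log axes), each point 1 library of Scl-Ab, vehicle or WT. In the Cx3cr1 panel the 10 Scl-Ab points run upward from left to right (r = 0.861 on the log2 value + 1 scale) and the 9 vehicle points do not (r = -0.381), and 2 WT points lie apart at the lower left.

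The code range moved with these values, since the 4 Scl-Ab libraries of the range 12 to 15 averaged 28.9 ± 6.22 for Ackr3 and 8.05 ± 4.08 for Cx3cr1 and the 6 of the range 27 to 33 averaged 19.3 ± 5.91 for Ackr3 and 4.75 ± 1.97 for Cx3cr1 (SD). Within the 6 Scl-Ab libraries of the range 27 to 33, r was 0.924 for Cx3cr1 with Ackr3 (exact permutation p = 0.0264), 0.883 for Cx3cr1 with Cxcr4 (exact permutation p = 0.0139), 0.708 for Cxcr4 with Ackr3 (exact permutation p = 0.0792) and 0.499 for Ccr2 with Ackr3 (exact permutation p = 0.311), all unadjusted. The range 12 to 15 in Scl-Ab and both ranges in vehicle hold fewer than 6 libraries, and no correlation is given there. Scl-Ab replicates 17, 18 and 19 were the lowest for Ackr3, at 13.7, 14.9 and 13.8, and also had the lowest endothelial sums of the group, at 108, 101 and 84.6, a relation that was not tested. In WT, r for Cx3cr1 with Ackr3 was 0.614 over all 10 libraries (permutation p = 0.0544; rho = 0.115, permutation p = 0.758) and -0.512 without the 2 farthest. For Cxcr4 with Ackr3 in WT, r was 0.771 (permutation p = 0.0121, adjusted 0.0455), rho was 0.406 (permutation p = 0.249), and r was 0.517 without the 2 farthest.

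Ccr1 and Ccr2 followed each other in both ApoE KO groups. In Scl-Ab, r was 0.744 (permutation p = 0.00846, adjusted 0.0455) and rho 0.648 (permutation p = 0.04996, adjusted 0.187), and r was 0.647 without the 2 farthest libraries. In vehicle, r was 0.839 (exact permutation p = 0.00364, adjusted 0.0364) and rho 0.650 (exact permutation p = 0.0666, adjusted 0.202), and r was 0.704 without the 2 farthest. The ranks did not pass the correction in either group. In WT, r was 0.606 (permutation p = 0.0641) and rho 0.661 (permutation p = 0.0444, adjusted 0.187). Within the 6 Scl-Ab libraries of the range 27 to 33, r was 0.875 (exact permutation p = 0.00139).

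As a description of likeness, the tested genes were ranked by the mean of their Spearman correlations with each receptor within the Scl-Ab, vehicle and WT groups (10, 9 and 10 libraries). For Ccr1 the top genes were Nxpe5 (mean rho 0.832), Itgam (0.828), which encodes an integrin of myeloid cells, and the inhibitory Fc receptor Fcgr2b (0.818). For Ccr2 they were the polysialyltransferase gene St8sia4 (0.854), the interferon-induced GTPase gene Gbp7 (0.851) and the C-type lectin gene Clec4a2 (0.851). Cx3cr1 was closest to Fgd3 (0.836), Lrrc25 (0.821) and Hpgd (0.819), which encodes a prostaglandin-degrading enzyme. Cxcr4 was closest to Lpxn (0.832), which encodes the adhesion protein leupaxin, Dpep2 (0.792) and Prkcb (0.774), which encodes a protein kinase C. Ackr3 was closest to Rflnb (0.866), S1pr3 (0.822), which encodes a receptor for sphingosine 1-phosphate, and Fam107b (0.816). No gene was among the top 3 of more than 1 receptor. Libraries share depth and tissue makeup, which enter every one of these values.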

How the data were processed

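RNA from the aortic arch was made into stranded mRNA libraries, per the labels' protocols. The authors deposited 1 FPKM-like value per gene symbol and library. The unit is called FPKQ per the file headers and is not spelled out there. Its 85th percentile over genes was 6.99 to 7.30 in each library, so they were taken to be scaled to one upper quantile. Between 74.6 and 77.3% of low values lay within 0.05 of whole reads (per kilobase of exon, GENCODE M21), which gave the fragments per value. Genome build GRCm38 and DESeq2 1.10.1 are named in the submitters' processing notes with no role. The aligner and the counter are not named in the sources used here.

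Groups and replicate numbers came from the labels. Nothing says how libraries were batched. All 29 libraries entered 1 fit of log2(value + 1) with 3 group means in limma 3.58.1 (trend and robust empirical Bayes; R 4.3.3). Genes at 1 or more in at least 9 libraries were tested. The fit was tested on simulated data. Single genes were also tested by exact permutation in R. Permutation tests of the relations between receptors ran in Python, with ranks and adjusted p-values from scipy 1.17.1. No 2 libraries of a group were duplicates. Promoter windows came from RefSeq (GRCm38.p6), and all 5 genes matched. Named were the 5 receptors, all listed ligands, the tested receptors, the 3 signalling genes with the smallest p in each comparison, the 3 most alike genes per receptor and the marker sums. One gene of the receptor list is not reported here. The receptors, lists and tests were chosen with earlier results of these data known.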

Additional observations from a re-analysis of the deposited data

Results flagged for a closer look

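The level of Ccr1 in Scl-Ab replicate 13 was 6.28, and the other 9 Scl-Ab libraries ran from 1.16 to 3.15. Its gap to the next library is large for a group of 10 by Dixon's test. Chance marks about 1 in 20 groups this way, and 15 sets (5 genes in 3 groups) were examined. The same library had the highest sum of classical monocyte markers in its group (71.5), the highest sum of neutrophil markers (31.6, with the next library at 14.8) and the highest Ccl2 (21.1), Ccl7 (27.6) and Ccl12 (24.005) of the group. Without it the log2 fold change of Ccr1 between Scl-Ab and vehicle fell to -0.12 (limma adjusted p = 0.675).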

How the results depend on the processing

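Against WT, Ccr1, Ccr2, Cx3cr1 and Cxcr4 kept their direction and their calls under both other pseudocounts, no filter, equal totals, TMM scaling, the 2 groups alone, the Wilcoxon test, the clock and adipocyte covariates and each library left out, except that Ccr1 was not tested with a filter of 5. The exception was the macrophage covariate. There, for vehicle against WT, 314 genes and 0 receptors passed (limma; 2400 genes and 1 receptor at an unadjusted p under 0.05), with log2 fold changes of -0.057 for Ccr1, 0.66 for Ccr2, -1.10 for Cx3cr1, 0.91 for Cxcr4 and -1.34 for Ackr3. For Scl-Ab against WT, 323 genes and 0 receptors passed (2437 genes and 2 receptors unadjusted), with 0.040 for Ccr1, 1.42 for Ccr2, -0.46 for Cx3cr1, 0.77 for Cxcr4 and -1.20 for Ackr3. The cause was not tested.

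For Scl-Ab against vehicle 1005 genes passed, 447 without a filter, 369 with equal totals, 309 with the 2 groups alone, 412 with the Wilcoxon test, 3 with the clock index, 415 in the range 27 to 33 and 0 in the range 12 to 15 alone (limma; 1615 at an unadjusted p under 0.05). The receptors passing numbered 1 (Ccr2) with the macrophage covariate (log2 0.76, where 8.96% of all genes passed) and with the code range (0.67, where 8.28% did). The exact permutation test of Ccr2 alone (0.63) gave an unadjusted p = 0.0351. It is not a call at an adjusted p, and 25% of all genes had an unadjusted p under 0.05 by limma. Ccr1, near 0, changed sign to 0.0051 with pseudocount 0.1, 0.0016 with pseudocount 0.5, 0.024 with equal totals, 0.014 with TMM, 0.12 with the clock index, 0.097 with the macrophage covariate, 0.024 with the code range, and 0.0032 and 0.039 in the ranges 12 to 15 and 27 to 33. Ackr3 changed sign to -0.054 with the clock index, -0.094 with the adipocyte covariate and -0.20 in the range 27 to 33. With 1 library left out in turn, 547 to 1223 genes and 0 to 1 receptors passed, with 547, 607 and 628 genes without vehicle replicates 2, 6 and 5. Ccr1 then ran from -0.12 to 0.082, Ackr3 from -0.11 to 0.12 and Ccr2 from 0.52 to 0.74.

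Of the calls, the share that was higher was 35.4% for Scl-Ab against vehicle (65.0% with equal totals, 49.4% with TMM) and 39.4% for Scl-Ab against WT (53.1% with TMM). No scaling moved the median of all genes by 0.1 or more on the log2 scale. The groups share no replicate numbers, but 8 Scl-Ab and 8 vehicle libraries have title codes that end in the same 2 digits. In an analysis with these ends as a replicate block, added once the data had been seen, 7 genes and 0 receptors passed (limma), against 180 genes and 0 receptors in the same 16 libraries with no block. In both, the log2 fold change was 0.75 for Ccr2 (adjusted p = 0.198 with the block and 0.174 with none) and 0.049 for Ccr1. Ccr2 was higher in the Scl-Ab library of 7 of the 8 pairs. That count was not set against all genes and adds no test to the group difference. Whether libraries with the same end share more than a number cannot be told from these values. The deviations from the group means correlated over 0.1 in 2 of the 8 pairs (range -0.54 to 0.62). Of the 8 Scl-Ab libraries, 2 correlated best with the vehicle library of their own end. The spread between libraries, and not depth, limits Ackr3, while Cxcr4 and Ccr1 in WT rest on few fragments.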
